A study of Homo sapiens with 4 samples.

Results

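The genes described here encode 9 enzymes that act on adenosine monophosphate (AMP) or on compounds near it in purine metabolism. Their RNA was measured in OPM2 cells, an established human multiple myeloma line. The genes are those of the AMP deaminases AMPD1, AMPD2 and AMPD3, the adenosine enzymes ADA and ADK, the nucleotidases NT5E and NT5C2, and the salvage enzymes APRT and HPRT1. They make up 9 of the 18377 genes carried by probe sets that the platform annotation ties to a single gene. Each member had exactly 1 such probe set, so no choice between probe sets was needed. AMPD1 was chosen by its readout: its difference between treated and control cells had the smallest adjusted p of any gene in these data (0.0640 with limma, above the threshold of 0.05). Its values are therefore a description, with no test. The other 8 were listed by their roles.

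RNA was profiled on 4 one-colour arrays, 2 of control cells given the solvent DMSO and 2 of cells given VS-5584 (SB2343), an inhibitor of PI3 kinases and mTOR, all taken after 24 h. The labels name no added gene and no further treatment, and all cultures grew in the same serum-containing medium. The dose reads 123 nM in the sample labels and 125 nM in the design text of the series, which sets it relative to the IC50 at 48 h. By their titles the samples are biological replicates, but nothing tells whether the cultures were grown apart, so p-values measure only the spread between these samples.

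AMP stands at a branch point of adenine nucleotide metabolism. AMP deaminase converts it to inosine monophosphate (IMP) with release of ammonia, which lets the adenylate kinases go on turning ADP into ATP and AMP when energy runs short. Nucleotidases instead remove its phosphate to give adenosine, which ADA turns into inosine and ADK returns to AMP. APRT and HPRT1 rebuild nucleotides from free bases. AMPD1 is the skeletal muscle form of the deaminase and is also found in plasma cells, AMPD2 is the widespread form, and AMPD3 is the form of red blood cells.

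The RefSeq promoter table (GRCh38.p14) held 18 windows for all 9 members, several having more than 1 annotated start. The 250 bases before the start are shown for the members with the largest difference in each direction, AMPD1 and ADA, and for AMPD2, a deaminase relative of AMPD1 on the same chromosome (its most upstream start), so that their base composition can be compared. Capitals mark the TATA box core TATAAA, the GC box core GGGCGG and the E-box CACGTG, on either strand. The windows are chr1:114695547-114695796 on the minus strand for AMPD1, chr1:109619587-109619836 on the plus strand for AMPD2 and chr20:44651700-44651949 on the minus strand for ADA, each written 5′ to 3′.
AMPD1: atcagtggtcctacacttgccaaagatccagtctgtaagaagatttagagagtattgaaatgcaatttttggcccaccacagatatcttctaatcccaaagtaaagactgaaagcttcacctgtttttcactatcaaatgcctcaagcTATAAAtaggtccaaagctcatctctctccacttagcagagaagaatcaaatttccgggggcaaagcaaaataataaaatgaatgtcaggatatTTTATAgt
AMPD2: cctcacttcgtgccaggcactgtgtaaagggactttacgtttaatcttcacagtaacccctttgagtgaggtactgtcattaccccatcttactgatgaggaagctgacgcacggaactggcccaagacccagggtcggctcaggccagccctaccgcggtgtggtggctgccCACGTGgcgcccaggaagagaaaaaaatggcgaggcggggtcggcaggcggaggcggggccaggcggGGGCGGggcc
ADA: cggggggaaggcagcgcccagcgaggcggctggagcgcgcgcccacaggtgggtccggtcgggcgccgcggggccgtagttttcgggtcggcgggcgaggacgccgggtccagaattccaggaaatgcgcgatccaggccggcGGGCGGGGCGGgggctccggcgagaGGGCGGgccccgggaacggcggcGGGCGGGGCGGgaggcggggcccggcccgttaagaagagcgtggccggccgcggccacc

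The AMPD1 window was poor in G and C (37.2%) and held 1 CpG, whereas the ADA window had 80% G and C and 41 CpGs. AMPD2 lay between, at 62% and 16 CpGs. Over 35114 windows of the table the medians were 58% and 11 CpGs, and 8.94% of windows were as low in G and C as that of AMPD1. Among the 17 windows of the other members, 2 were lower, both of NT5C2. AMPD1 was the only member with TATAAA in its window, at position -102 from the start and once on the other strand, where 10.7% of all windows held it on either strand. GGGCGG was found in 11 of the 18 member windows, against 42.6% of all windows. Each of the other 8 members had it in at least 1 window, but not in every window of those with several. CACGTG was found in the AMPD2 window (6.35% of all), and GTAAACA, the core recognised by forkhead factors, in a window of AMPD3 (2.98% of all). Neighbouring GGGCGG matches overlap in the ADA window, and no searched motif overlaps another kind. The arrays do not show which start was used, so these matches describe the sequence only.

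The second treated array stood apart from the other 3. The log2 range between its quartiles was 1.74, against 1.93 to 1.95 on the others. Its log2 values correlated with theirs at r = 0.980 to 0.985 over 28869 probe sets, where each of the other 3 reached 0.994 to 0.996 with its nearest. The array nearest to the first treated array was control replicate 1 (r = 0.996), so the 2 treated arrays did not group together. On the second treated array the median gene was 0.14 log2 units below the control mean (-0.14), against -0.0022 on the first. The line's plasma cell origin was checked by its markers, of which 10 of 10 were above the filter on dim genes. Their intensities summed to 12111 to 12294 in control and 13108 to 13978 in treated cells. The brightest, JCHAIN, gave 3099 and 3354 in control and 2815 and 4731 in treated cells, so its groups overlapped. The median log2 difference of the 10 markers was 0.09. Of 12 skeletal muscle markers, 4 were above the filter, and their list summed to 530 to 565 in control and 527 to 583 in treated cells. The mean intensities of these 12 ran from 23.2 for the myosin gene MYH1 to 86.1 for the troponin gene TNNT3, with a median of 38.9. The lowest values of the arrays were 19.8 to 20.01. None of 5 T cell and 5 myeloid markers, and 1 of 4 measured red cell markers (HBB), passed the filter.

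Of the 9 members, 8 were tested. AMPD3, with intensities of 38.5 to 43.3, lay below the filter, which left out the 40% of genes with the lowest mean (under 48.9). With limma (moderated linear model, Benjamini-Hochberg adjustment over 11026 genes), 0 of the 8 passed an adjusted p of 0.05, and 0.0% of all tested genes did. The choice of AMPD1 fixed its place among the genes that differ, so it is left out of the counts that follow. At an unadjusted p under 0.05 there were 2 of the other 7 (10.4% of all genes), ADA and ADK, both lower (8.93% of all genes), and 0 higher (1.49%). Without moderation of the variance the count of adjusted calls was also 0. The treated and control arrays did not overlap for 3 of the 7, against 43.9% of all genes. NT5E was higher (14.7% of all genes were) and ADA and ADK lower (29.2% of all genes were). NT5E passed the filter only through its first treated array, so its place among the higher genes is a description only. Taken alone, the first treated array lay above both controls for 2 of the 7 (33.3% of all genes) and below both for 4 (34.6% of all genes). The median log2 difference was -0.11 for the 7 and -0.064 for all tested genes.

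**Figure D1:**
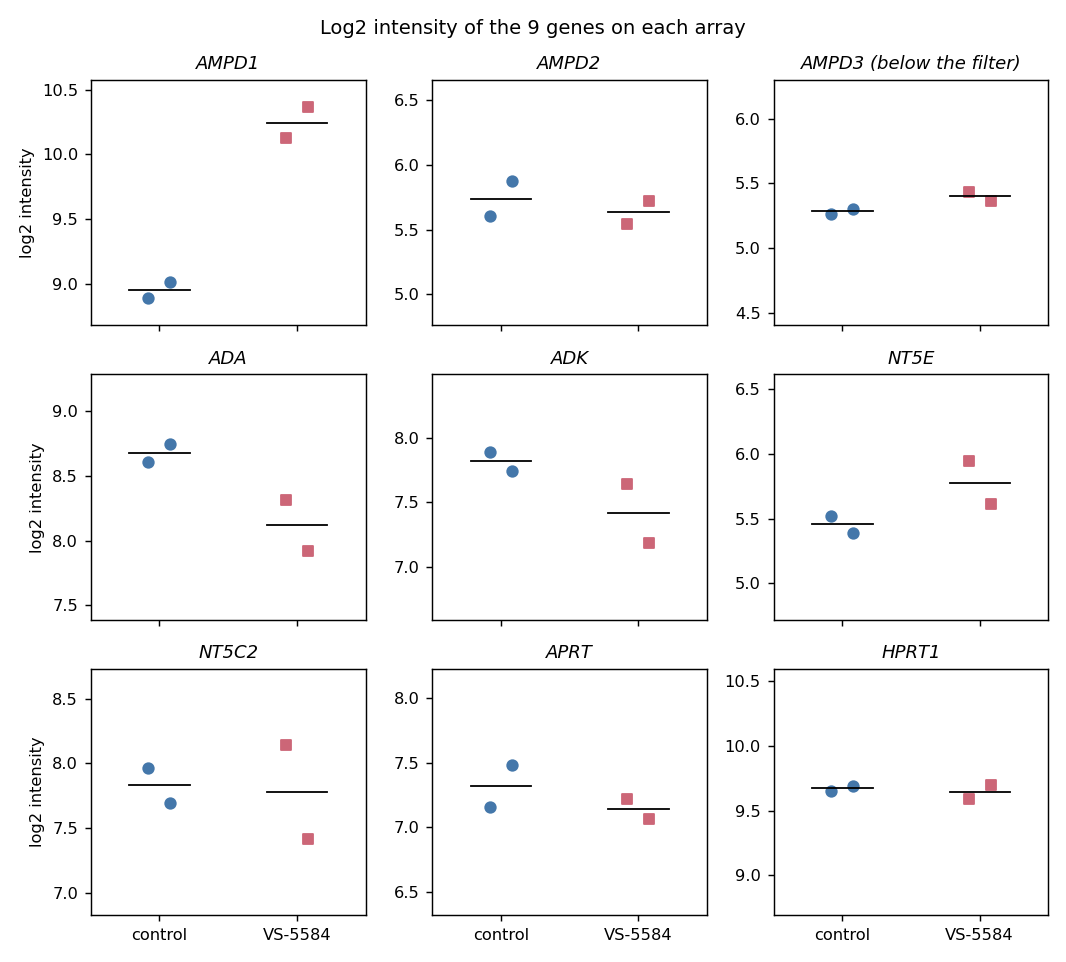
Log2 intensity of each of the 9 genes (y axis, same span of 1.9 units in every panel) on the 2 control arrays (blue circles) and the 2 VS-5584 arrays (red squares); bars are group means and replicate 1 is drawn left of replicate 2. AMPD1 moves from about 9 to above 10, ADA and ADK lie lower on both treated arrays, and NT5C2 spreads widest between the treated arrays.

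AMPD1 was measured at an intensity of 473 and 516 on the control arrays and at 1117 and 1319 on the treated arrays. Both treated arrays were above both controls, with a gap wider than the distance between replicates of either group. On the log2 scale the control mean was 8.95 ± 0.09 and the treated mean 10.25 ± 0.17 (SD, n = 2 each), which is 2.46-fold higher. The fold was 2.26 on the first treated array and 2.67 on the second. Among 11026 genes, AMPD1 ranked 2 in increase on the first treated array and 3 on the second, and 1 by the mean of both. Only 3 and 12 genes respectively were over 2-fold higher on these arrays. Since AMPD1 was chosen for its difference, its ranks and the gap between groups are a description only. In a bulk sample, more cells that carry a transcript and more transcript per cell cannot be told apart.

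AMPD2 was dim, at 48.6 and 58.7 in control and 46.6 and 52.8 in treated cells. The groups overlapped, and the control arrays differed from each other by more than the group means did. The log2 difference was -0.11 ± 0.15 (SE), with a 95% interval of -0.44 to 0.23 (limma adjusted p = 0.805), and it turned to 0.029 without control replicate 2. AMPD3 gave 38.5 and 39.5 in control and 43.3 and 41.1 in treated cells. Both treated values were above both controls, by a log2 difference of 0.12. In a fit without the filter its SE was 0.08 (limma adjusted p = 0.745). The deposited values may contain a constant, which would make the differences of such dim genes too small. With 16 subtracted from every intensity, AMPD2 differed by -0.15 and AMPD3 by 0.19.

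Taking 1 deaminase against another within each array removes a constant factor of the whole array and nothing else, and AMPD2 is dim and AMPD3 below the filter. The AMPD1 change exceeded the AMPD2 change by 1.37 log2 units on the first treated array and 1.43 on the second. It exceeded the AMPD3 change by 1.02 and 1.34. The mean excess was 1.40 over AMPD2 and 1.18 over AMPD3, and it was 1.57 and 1.34 after cyclic loess, an intensity-dependent normalization between arrays. With 2 arrays a group an exact two-sided permutation test cannot go below p = 0.333, and since AMPD1 was chosen for its difference none is drawn on here.

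ADA, which deaminates adenosine to inosine, was the member with the largest lower value. It stood at 391 and 430 in control and at 318 and 243 in treated cells. Both treated arrays were below both controls, and the second was the lower one. The log2 means were 8.68 ± 0.10 and 8.12 ± 0.28 (SD, n = 2 each), which is 1.48-fold lower in treated cells. The difference was -0.56 ± 0.16 (SE; 95% interval -0.92 to -0.20; limma adjusted p = 0.323), so it did not pass over all genes. It was -0.37 on the first treated array, -0.76 on the second and -0.42 after cyclic loess. With 1 treated array left out, the difference is that of the other.

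ADK, the kinase that turns adenosine back into AMP, gave 237 and 214 in control and 199 and 146 in treated cells. All treated values were below the controls, the first by a margin no wider than the distance between the controls. The log2 difference was -0.40 ± 0.17 (SE; 95% interval -0.78 to -0.02; limma adjusted p = 0.464). It was -0.18 on the first treated array and -0.63 on the second, the values also left when the other treated array is dropped. After cyclic loess it was -0.26. The part that the narrower range of the second treated array has in the ADA and ADK values was not tested.

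**Figure D2:**
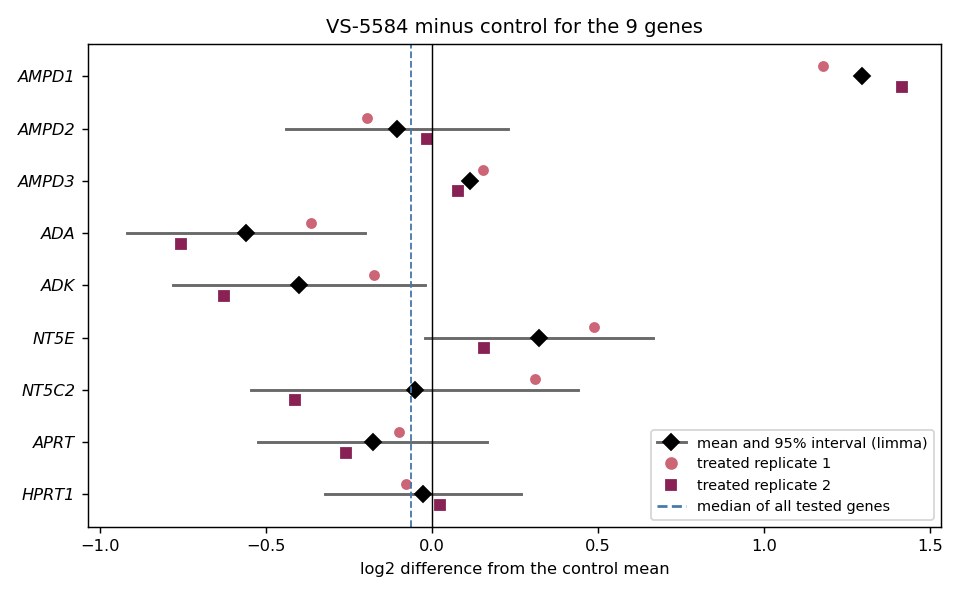
Log2 difference from the control mean (x axis) for each of the 9 genes (y axis): treated replicate 1 (circles), treated replicate 2 (squares) and their mean (diamonds), with limma's 95% interval for the 7 tested genes other than AMPD1. The dashed line is the median of all tested genes, -0.064. The intervals of ADA and ADK lie below 0, and the others cross it.

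NT5E, the surface enzyme CD73 that makes adenosine from AMP outside the cell, gave 46.0 and 41.8 in control and 61.5 and 48.8 in treated cells. Both treated arrays were above both controls, the second by little. The log2 difference was 0.32 ± 0.15 (SE; 95% interval -0.02 to 0.66; limma adjusted p = 0.504), with 0.49 on the first treated array and 0.15 on the second. Both control values and the second treated value lay under the filter's limit of 48.9. The gene passed only through its first treated array, so its difference is a description. That difference was 0.47 with 16 subtracted from every intensity.

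NT5C2, a cytosolic nucleotidase that prefers IMP and GMP, gave 250 and 207 in control and 282 and 171 in treated cells. The treated arrays lay on opposite sides of the controls, by 0.31 and -0.41 on the log2 scale. The mean difference was -0.05 ± 0.22 (SE; 95% interval -0.54 to 0.44; limma adjusted p = 0.945). Its sign turned after cyclic loess normalization (0.088), without control replicate 1 (0.084) and without treated replicate 2 (0.31).

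The salvage enzymes differed by less. APRT, which makes AMP from adenine, gave 143 and 179 in control and 149 and 133 in treated cells, and the groups overlapped. Its log2 difference was -0.18 ± 0.15 (SE; 95% interval -0.52 to 0.17; limma adjusted p = 0.686). After cyclic loess it was -0.06. Without control replicate 2 it was -0.02, and without control replicate 1 it was -0.34. HPRT1, which makes IMP and GMP from hypoxanthine and guanine and is often used as a reference gene, gave 805 and 828 in control and 773 and 829 in treated cells. The 4 values overlapped and had the narrowest spread of the tested members. The log2 difference was -0.03 ± 0.13 (SE; 95% interval -0.32 to 0.27; limma adjusted p = 0.951), and it was 0.083 after cyclic loess and 0.023 without treated replicate 1.

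**Figure D3:**
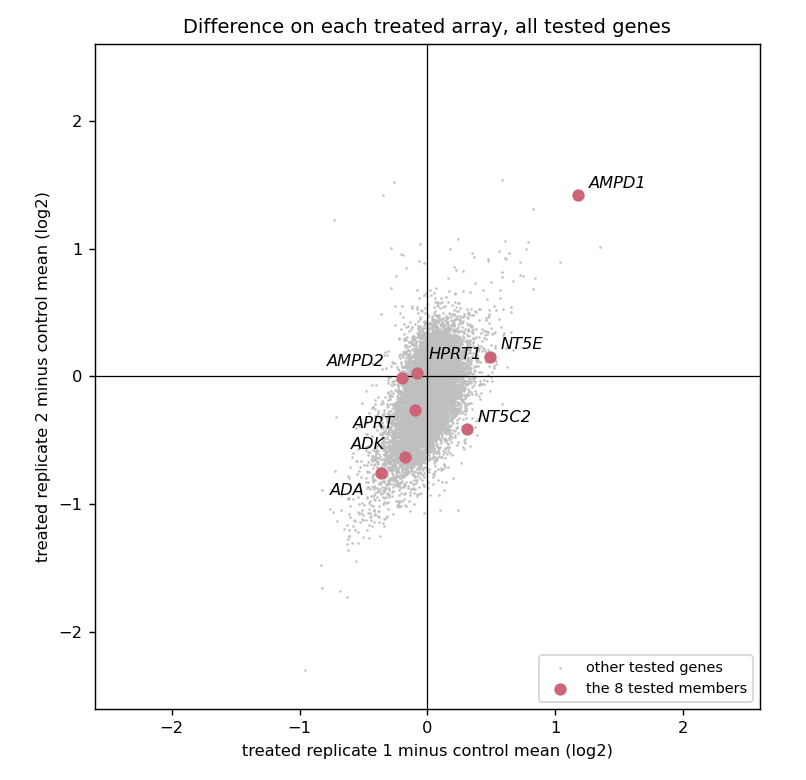
Log2 difference from the control mean on treated replicate 1 (x axis) and treated replicate 2 (y axis) for all 11026 tested genes (grey) and the 8 tested members (red). AMPD1 lies at 1.18 and 1.42, ADA and ADK lie below 0 on both arrays, and NT5C2 lies on opposite sides of 0.

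The genes whose pattern over the 4 arrays came nearest to that of AMPD1 were found by the Euclidean distance between log2 values, each gene centred on its control mean. The nearest was RASGRP3 (distance 0.37 log2 units), which encodes an exchange factor for Ras proteins, at intensities of 62.7 and 69.3 in control and 117 and 164 in treated cells. PLAAT4, an acyltransferase of phospholipids, followed (0.45). Next came the mucin gene MUC13 (0.57), the histone demethylase gene KDM5B (0.59) and SELENOP, which encodes a selenium carrier (0.62). Their mean log2 differences were 0.88 to 1.18, which follows from choosing them by this distance. AMPD1, RASGRP3, MUC13, KDM5B and SELENOP were higher on the second treated array than on the first, and PLAAT4 was higher on the first.

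Around the members, 8 lists of other genes of AMP and purine handling held 84 genes, of which 74 had a single-gene probe set and 52 were tested. With limma, 0 of the 52 passed an adjusted p of 0.05, and the ordinary test without moderation called 0 of all genes. At an unadjusted p under 0.05 there were 5, all lower in treated cells, or 9.62% of the 52 against 8.93% of all genes. Treated and control arrays did not overlap for 7 higher genes (13.5%, against 14.7% of all) and 14 lower genes (26.9%, against 29.2%). The lists together thus stood close to the background.

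The list of salvage partners and suppliers of phosphoribosyl pyrophosphate (PRPP), the sugar that APRT and HPRT1 join to a base, had 10 of 11 genes lower in treated cells, with a median log2 difference of -0.22. Of all tested genes 62.7% were lower, and their median was -0.064. The same number, 10 of 11, was lower on the first treated array alone (median -0.07; 50.6% of all genes were lower there) and on the second (median -0.34; 67.4% of all genes). After cyclic loess the list median was -0.08 with 9 of 11 lower, where all tested genes had a median of -0.01 and 52.5% were lower. PRPS1, a PRPP synthetase, gave 348 and 391 in control and 302 and 234 in treated cells, a log2 difference of -0.47 ± 0.16 (SE, limma adjusted p = 0.390). PRPSAP1, a protein associated with that synthetase, gave 195 and 231 in control and 169 and 144 in treated cells, a difference of -0.45 ± 0.15 (limma adjusted p = 0.390). For both genes all treated values were below all controls. HINT1, a nucleotide hydrolase, was the member that was higher, by 0.12.

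Another list held the partners of AMP deaminase in the purine nucleotide cycle and the enzymes that take IMP to GMP. Of its 5 tested genes 3 were lower, near the 62.7% of all genes, and the median was -0.24, against -0.064. The list median was -0.04 on the first treated array (all genes -0.0022) and -0.44 on the second (all genes -0.14). It was -0.11 after cyclic loess (all genes -0.01) and -0.09 without the filter on dim genes (all genes -0.0067). GMPS, which makes GMP, gave 919 and 913 in control and 791 and 651 in treated cells (-0.35 ± 0.14, SE). ADSS1, the muscle form of adenylosuccinate synthetase, which takes IMP back towards AMP, gave 85.7 and 81.6 in control and 97.5 and 97.9 in treated cells (0.22 ± 0.13). The treated arrays were below the controls for GMPS and above them for ADSS1, and neither gene passed (limma adjusted p = 0.453 and 0.564).

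In the list of other nucleotidases and purine breakdown, 3 of 7 were lower (62.7% of all genes were) and the median was 0.05. PNP, which splits inosine into hypoxanthine and a sugar phosphate, gave 609 and 624 in control and 513 and 441 in treated cells, a difference of -0.37 ± 0.14 (SE, limma adjusted p = 0.424) with no overlap. NT5C3B, a cytosolic nucleotidase, differed by -0.26 ± 0.20, with 0.0034 on the first treated array and -0.53 on the second. Among adenosine transporters and receptors, 3 of 5 were lower with a median of -0.01. SLC29A1, the equilibrative nucleoside transporter, gave 318 and 320 in control and 284 and 188 in treated cells, a difference of -0.47 ± 0.19 (limma adjusted p = 0.450). Its difference was -0.17 on the first treated array and -0.76 on the second. The adenosine receptor gene ADORA1 differed by 0.14 ± 0.16.

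**Figure D4:**
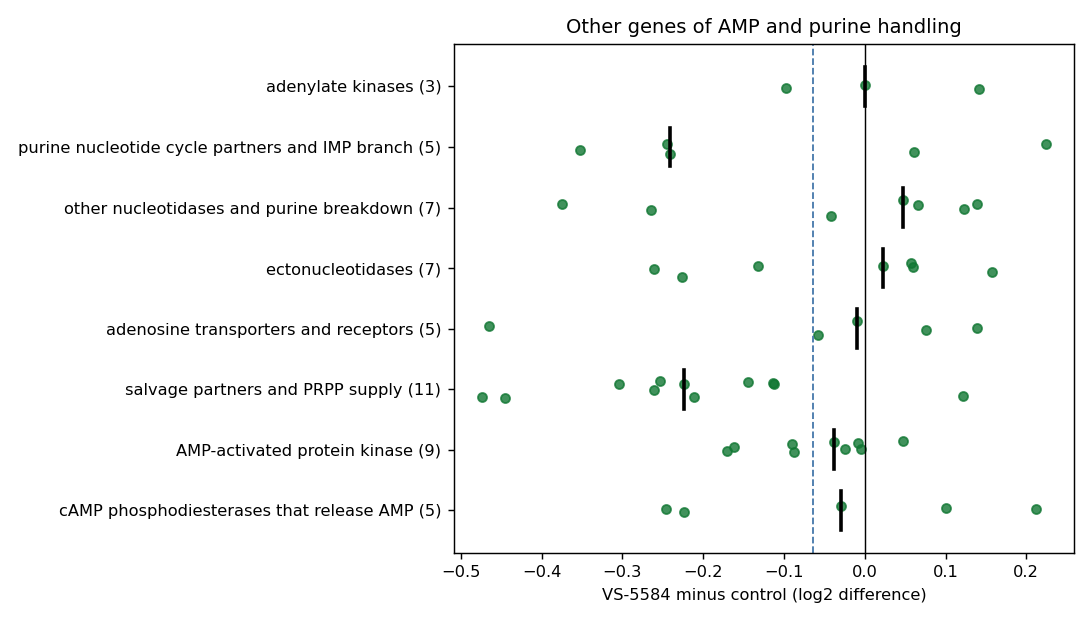
Mean log2 difference between VS-5584 and control arrays (x axis) for the 52 tested genes of 8 lists (y axis, number tested in brackets); each point is a gene, the black bars are list medians and the dashed line is the median of all tested genes, -0.064. The PRPP list and the purine nucleotide cycle list have medians of -0.22 and -0.24, and the other 6 lie between -0.04 and 0.05.

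The other 4 lists had medians of -0.04 to 0.02. Of the adenylate kinases, which interconvert AMP, ADP and ATP, 3 of 9 were tested, with AK1 at 0.14 ± 0.14 and AK4 at -0.10 ± 0.13 (SE). In the list of ectonucleotidases, 3 of 7 were lower, with ENTPD5 at -0.26 ± 0.16 and ENTPD7 at -0.23 ± 0.16. Enzymes of this list split phosphates from nucleotides, and not all of them act outside the cell. Subunits and activators of AMP-activated protein kinase, the sensor of AMP, were lower in 8 of 9 cases, by a median of -0.04, against 62.7% of all genes. On the first treated array 2 of the 9 were lower (50.6% of all genes), and on the second 8 (67.4%). After cyclic loess 4 of the 9 were lower and the median was 0.05. The catalytic subunit genes PRKAA1 and PRKAA2 differed by -0.16 ± 0.14 and -0.17 ± 0.15. Of the phosphodiesterases that turn cyclic AMP into AMP, 3 of 5 were lower, with PDE7A at -0.25 ± 0.15 and PDE3B at 0.21 ± 0.14. The limma adjusted p-values of these 8 genes ran from 0.572 to 0.796.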

How the data were processed

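The deposited table holds 1 linear intensity per probe set and array. Per the submitters' processing notes the authors used RMA, without a version. The step from RMA to linear values that differ in distribution, any added constant and the genome build are not given in the sources used here. Depth does not apply to arrays, and their number limits the precision.

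Intensities were turned into log2 values and not normalized again. Genes came from the platform annotation, with symbols updated through RefSeq (19279 of 19310 single-gene probe sets matched), and the probe set with the highest mean stood for a gene. Groups and replicate numbers came from the titles. The 40% dimmest of 18377 genes were left out, and 11026 were tested by lmFit and eBayes of limma 3.58.1 in R 4.3.3 (two-sided, Benjamini-Hochberg, threshold 0.05). Intervals use the model's SE and degrees of freedom. The code was tested on simulated data.

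The members, lists and tests were chosen with earlier results of these data known. Named genes are the members, from each list the 2 genes of smallest unadjusted p, and the 5 nearest to AMPD1. HINT1, the marker genes JCHAIN, MYH1, TNNT3 and HBB, and the neighbours of AMPD1 were named after their values were seen. The alternatives were median centring, cyclic loess, a block for the replicate number, other filters, 16 subtracted from every intensity, an intensity trend, an unmoderated test, averaged probe sets and leaving out each array. Promoter windows came from the RefSeq table. Figures were drawn with matplotlib 3.10.9.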

Additional observations from a re-analysis of the deposited data

How the results depend on the processing

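AMPD1 was chosen by its difference, which is given as a description. The replicate block and the intensity trend cannot move the difference in this balanced layout, and it stayed at 1.30. It was 1.25 with median centring, 1.41 after cyclic loess and 1.32 with 16 subtracted from every intensity. Leaving out 1 array at a time gave 1.18 to 1.42. Where 1 array is left in a group, that array is assumed to vary like the other group's. The numbers are not stated to pair the arrays, and the replicate differences of the groups correlated at r = 0.156 over genes. With the replicate block 432 genes passed, ADA among them (limma adjusted p = 0.0173). The excess of the AMPD1 change over AMPD2 and AMPD3, 1.40 and 1.18, cannot be moved by the block either. Genes that passed numbered 16 after cyclic loess, 2 with 16 subtracted, 80 with a trend, and 2 to 2636 without 1 array. At an unadjusted p under 0.05 they numbered 492 without moderation of the variance and 489 to 4229 without 1 array, against 1149. After cyclic loess those were 482 higher and 877 lower, against 164 and 985. Signs turned after cyclic loess for NT5C2 (0.088) and HPRT1 (0.083). They also turned for AMPD2 without control replicate 2 (0.029), where leaving out 1 array gave -0.24 to 0.029, for NT5C2 without control replicate 1 or treated replicate 2 (-0.41 to 0.31), and for HPRT1 without treated replicate 1 (-0.079 to 0.023). The adenylate kinase median moved to 0.083 after cyclic loess and 0.061 with the dimmest 20% left out, and that of other nucleotidases to 0.0011 with median centring. Without 1 array, the latter ran from -0.075 to 0.022 and that of AMP-activated protein kinase from -0.19 to 0.055. The causes were not tested.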

Other observations

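The protein-coding genes that lie nearest to AMPD1 in RefSeq (GRCh38.p14) were read after its values were seen, among the 3 on either side that had a single-gene probe set. BCAS2, a splicing factor gene, gave 648 and 702 in control and 617 and 541 in treated cells (log2 difference -0.22 ± 0.14, SE; limma adjusted p = 0.582). TRIM33, a ubiquitin ligase gene, differed by -0.15 ± 0.15 and SIKE1, a kinase suppressor gene, by 0.03 ± 0.14. DENND2C, next to AMPD1, was below the filter, at 26.5 to 28.6 on all 4 arrays.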
